A study of Caenorhabditis elegans with 15 samples.

Results

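The 10 genes described here build or prepare the meiotic chromosome axis and the synaptonemal complex of Caenorhabditis elegans, and were chosen by name. They are syp-1, syp-2, syp-3, htp-1, htp-3, him-3, rec-8, spo-11, him-8 and zim-2. All 10 were read from probe sets annotated to 1 gene, 11 probe sets in all because him-3 has a pair, out of 17118 named genes and 22548 probe sets tested. RNA from hand-picked pools of wild-type N2 Bristol hermaphrodites was hybridised to Affymetrix C. elegans Genome Arrays, with 5 arrays for each of 3 stages. L4 animals, the last larval stage, were moving and feeding and were taken 42 h after arrested first-stage larvae were fed. L4-lethargus animals, called lethargus from here on, were 45 to 50 h old by the same clock and had ceased to pump for 30 to 40 min. The Adult group is described as young adults. All 3 groups were N2 grown at 20 °C on DA837 bacteria and collected at 22.5 °C, and the labels name no drug or mutation. Each tube held 20 animals, and whole animals were used, so the RNA of germ cells was measured together with that of all other tissues. Fewer germ cells and less RNA per germ cell cannot be told apart in such samples.

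In meiotic prophase each chromosome first forms an axis of cohesin and HORMA-domain proteins. Homologous chromosomes then pair through zinc-finger proteins bound at their pairing centres, the central region of the synaptonemal complex joins the paired axes, and SPO-11 makes the DNA breaks that start recombination. In the hermaphrodite gonad germ cells pass through these steps on their way from the mitotic zone to gametes. The gonad makes sperm during L4 and oocytes in the adult, and growing oocytes store RNA for the embryo. By known role SYP-1, SYP-2 and SYP-3 are central region proteins, and HTP-1, HTP-3 and HIM-3 are HORMA-domain axis proteins. REC-8 is a meiotic kleisin of cohesin. HIM-8 binds the pairing centre of the X chromosome and ZIM-2 that of an autosome, so that these 2 and spo-11 are partners of the axis and the complex and not parts of them.

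Values are log2 intensities from the authors' RMA, a robust average over the probes of a set, in which 1 unit is a 2-fold difference. Levels are compared only within a probe set. A difference was called where limma gave an adjusted p no higher than 0.05, with adjustment over all 22548 probe sets, and differences carry their SE from that fit. All 11 probe sets lay above 5.56, the bound below which a signal was treated as background, in every stage. As a check of the tissue, none of 12 germline markers (among them glp-1, pgl-1, glh-1 and gld-1) had a stage mean below that bound. Array medians were 7.41 to 7.53 in L4, 7.49 to 7.54 in lethargus and 7.22 to 7.31 in Adult. Adult replicate 2 and lethargus replicate 1 stood apart by correlation with their stage. L4 replicate 3 did not (0.989, as for L4 replicate 2), but was high for the members themselves, and results that rest on these 3 arrays are given with and without them. Mean correlation with the other arrays of the stage was 0.987 for Adult replicate 2 against at least 0.994 for the other Adult arrays, and 0.987 for lethargus replicate 1 against at least 0.992 for its stage. The number of arrays limits the precision. The labels do not say that pools of 1 stage came from separate cultures, and the p-values cover only the spread among these pools, which may be technical.

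All 10 genes were lower in lethargus than in Adult, and 7 of 10 did not pass the test between lethargus and L4. In lethargus against Adult, 10 of 10 were lower (31.0% of all genes were called lower), by -1.22 to -0.34 in log2, and 0 were higher by limma, also at an unadjusted p under 0.05 (26.2% of all genes). In Adult against L4, 9 of 10 were higher (30.8% of all genes), the exception being syp-1, and 0 were lower by limma, also at an unadjusted p under 0.05 (28.7% of all genes). In lethargus against L4, 3 of 10 were higher (16.0% of all genes), namely spo-11, him-8 and zim-2, and 0 were lower by limma (15.6% of all genes), with 1, him-3, below an unadjusted p of 0.05. The comparisons share arrays and are not independent of each other. The median difference of the 10 genes was 0.13 for lethargus minus L4, -0.76 for lethargus minus Adult and 0.90 for Adult minus L4, beside medians of 0.00, -0.08 and 0.08 over all genes.

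**Figure D1:**
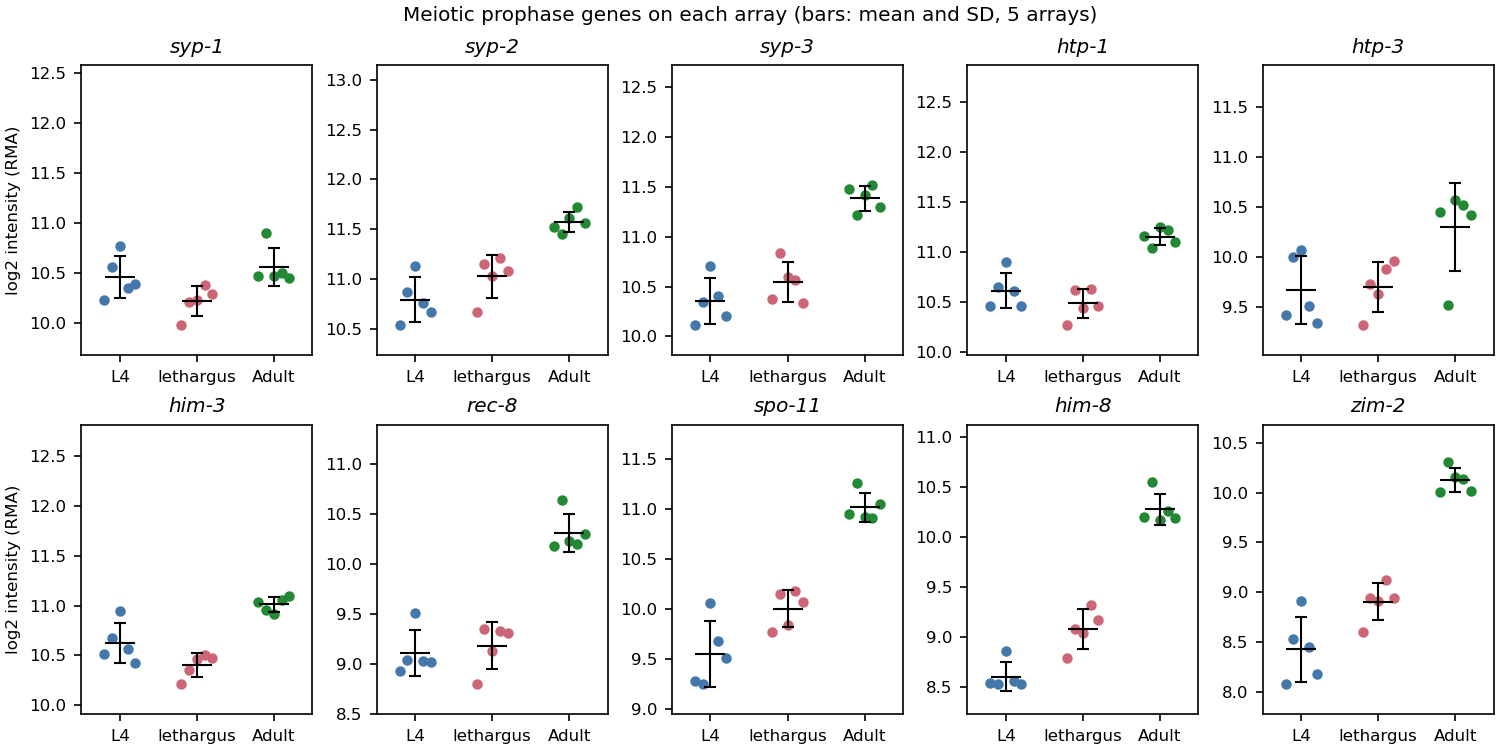
Log2 RMA intensity of each of the 10 genes on each of the 15 arrays, with the mean and SD of the 5 arrays of a stage; every panel spans the same number of log2 units, and panels start at different levels because levels are not compared between probe sets. The Adult arrays of rec-8, spo-11, him-8 and zim-2 lie above all L4 and lethargus arrays, whereas the 3 stages of syp-1 lie close together.

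The pairing centre genes changed most among the 10. For him-8 the log2 values of replicates 1 to 5 were 8.54, 8.53, 8.86, 8.55 and 8.53 in L4, 8.79, 9.08, 9.04, 9.32 and 9.17 in lethargus, and 10.20, 10.55, 10.17, 10.26 and 10.19 in Adult. Lethargus overlapped L4 only through lethargus replicate 1 and L4 replicate 3, and all Adult arrays stood above both. Its mean was 8.60 ± 0.14 in L4, 9.08 ± 0.20 in lethargus and 10.28 ± 0.16 in Adult (SD, n = 5 each). It was thus 1.39-fold higher in lethargus than in L4 (limma adjusted p = 0.00401) and 3.19-fold higher in Adult than in L4 (limma adjusted p = 1.81e-09). It was 2.29-fold lower in lethargus than in Adult (limma adjusted p = 1.46e-07).

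For zim-2 the values were 8.08, 8.53, 8.91, 8.45 and 8.18 in L4, 8.61, 8.95, 8.91, 9.12 and 8.95 in lethargus, and 10.01, 10.30, 10.15, 10.14 and 10.01 in Adult. L4 was the most scattered stage and lethargus lay within and above its range, while Adult was apart from both. The means were 8.43 ± 0.33, 8.91 ± 0.19 and 10.12 ± 0.12 (SD, n = 5 each). zim-2 was 1.39-fold higher in lethargus than in L4 (limma adjusted p = 0.0234) and 2.32-fold lower in lethargus than in Adult (limma adjusted p = 1.92e-06), and its Adult level was 3.23-fold that of L4 (limma adjusted p = 2.92e-08). The call against L4 was lost without any 1 of L4 replicates 1 and 5 and lethargus replicates 2, 4 and 5 (adjusted p = 0.0526 to 0.0714).

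In the reference annotation zim-1, zim-2, zim-3 and him-8 are consecutive protein-coding genes, and all 4 encode pairing centre zinc-finger proteins. The neighbours zim-1 and zim-3, named here after their values were seen, had the same order of stages as the members. zim-1 had 7.58 ± 0.27 in L4, 7.97 ± 0.32 in lethargus and 9.42 ± 0.07 in Adult, and zim-3 had 9.17 ± 0.23, 9.38 ± 0.17 and 10.30 ± 0.27 (SD, n = 5 each). The Adult minus L4 difference was 1.85 for zim-1, 1.69 for zim-2, 1.13 for zim-3 and 1.68 for him-8 in log2, and each of the 4 was called. Against L4, lethargus differed by 0.39 for zim-1 and 0.21 for zim-3, and neither passed (limma adjusted p = 0.0924 and 0.514).

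The break enzyme gene spo-11, which encodes a topoisomerase-like protein, followed the pairing centre genes. Its values were 9.27, 9.24, 10.05, 9.67 and 9.50 in L4, 9.77, 10.14, 9.84, 10.18 and 10.07 in lethargus, and 10.95, 11.26, 10.92, 10.91 and 11.05 in Adult. L4 replicate 3 reached into the lethargus range, and the other L4 arrays were below all lethargus arrays. spo-11 was 1.37-fold higher in lethargus than in L4 (log2 difference 0.45, SE 0.14, limma adjusted p = 0.0379), 2.77-fold higher in Adult than in L4 (limma adjusted p = 2.11e-07) and 2.03-fold lower in lethargus than in Adult (limma adjusted p = 1.75e-05). Without L4 replicate 3, the highest L4 array, the difference from L4 was 0.58 (limma adjusted p = 0.00223), a rise that the choice of array fixed. The call against L4 was lost without any 1 of 7 other arrays, which were L4 replicates 1, 2 and 5, lethargus replicates 2, 4 and 5 and Adult replicate 5 (adjusted p = 0.05001 to 0.109).

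For rec-8, which encodes a cohesin subunit that holds sister chromatids in meiosis, L4 and lethargus overlapped and Adult was apart. The values were 8.93, 9.05, 9.51, 9.03 and 9.02 in L4, 8.80, 9.35, 9.13, 9.33 and 9.31 in lethargus, and 10.19, 10.65, 10.23, 10.21 and 10.30 in Adult. The difference between lethargus and L4 was 0.08 in log2 with a 95% confidence interval of -0.20 to 0.36, and did not pass (limma adjusted p = 1). Adult was 2.31-fold above L4 (limma adjusted p = 1.08e-06), and lethargus was 2.19-fold below Adult (limma adjusted p = 3.00e-06).

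Of the central region genes, syp-2 and syp-3 rose from L4 to Adult and syp-1 was not called. syp-2 had 10.54, 10.87, 11.14, 10.77 and 10.67 in L4, 10.67, 11.15, 11.03, 11.21 and 11.08 in lethargus, and 11.52, 11.46, 11.62, 11.72 and 11.57 in Adult. Its L4 and lethargus arrays overlapped, and all Adult arrays lay above them. Adult was 1.72-fold above L4 (limma adjusted p = 3.61e-05) and lethargus 1.46-fold below Adult (limma adjusted p = 0.00127). The lethargus minus L4 difference was 0.23 and did not pass (95% confidence interval -0.02 to 0.48, limma adjusted p = 0.283). syp-3 ranged from 10.12 to 10.71 in L4, from 10.33 to 10.83 in lethargus and from 11.21 to 11.52 in Adult. It was 2.04-fold higher in Adult than in L4 (limma adjusted p = 1.83e-06), and 1.79-fold lower in lethargus than in Adult (limma adjusted p = 2.06e-05).

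syp-1 had the flattest profile of the 10. Its values were 10.22, 10.56, 10.77, 10.35 and 10.39 in L4, 9.98, 10.21, 10.22, 10.38 and 10.29 in lethargus, and 10.47, 10.90, 10.47, 10.50 and 10.45 in Adult. All Adult arrays lay above all lethargus arrays but by a small margin, and L4 overlapped both. The Adult minus L4 difference was 0.10 in log2 (95% confidence interval -0.15 to 0.34, limma adjusted p = 0.937), and its call depended on the scaling. It was -0.02 after quantile normalization again and -0.01 with cyclic loess, neither of them called, but 0.31 with median-centring (limma adjusted p = 0.0316) and 0.44 after scaling to the hybridisation controls (limma adjusted p = 0.00922). The fall of lethargus below Adult was 1.27-fold (limma adjusted p = 0.0347). It was not called without Adult replicate 2, the high array (log2 difference -0.26, limma adjusted p = 0.0874), without lethargus replicate 1, the low array (-0.28, 0.101), without lethargus replicates 2 or 3 or Adult replicate 4 (0.0510 to 0.0630), or after quantile normalization again (-0.21, 0.218) or cyclic loess (-0.19, 0.325).

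The log2 differences of syp-2 and of syp-3 from syp-1 on the same array had higher means in lethargus and Adult than in L4. This comparison was made after the values were seen and is given as a description. Only its change between stages is read, since levels of different probe sets are not compared. The syp-2 minus syp-1 difference was 0.34 ± 0.05 in L4, 0.81 ± 0.09 in lethargus and 1.02 ± 0.26 in Adult (SD, n = 5 each). Neither the lethargus nor the Adult arrays overlapped those of L4 in it. The syp-3 minus syp-1 difference was -0.10 ± 0.11 in L4, 0.32 ± 0.22 in lethargus and 0.83 ± 0.29 in Adult, and Adult did not overlap L4. Adult exceeded L4 by 0.68 for syp-2 minus syp-1 and by 0.93 for syp-3 minus syp-1, and by 0.79 and 1.06 without Adult replicate 2.

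Among the HORMA-domain axis genes all Adult levels were higher and the lethargus levels did not pass against L4. htp-1, whose product is a close paralogue of HTP-2, ranged from 10.46 to 10.90 in L4, from 10.27 to 10.63 in lethargus and from 11.04 to 11.25 in Adult. Adult was above all other arrays, 1.45-fold over L4 (limma adjusted p = 2.15e-04) and 1.59-fold over lethargus (limma adjusted p = 2.62e-05). The paralogue gene htp-2, named after its values were seen, was 1.59-fold higher in Adult than in L4 and differed by 0.07 in log2 between lethargus and L4 (limma adjusted p = 1). Cross-hybridisation of these paralogues was not tested.

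him-3 was read from the brighter of its probe sets, which had 10.52, 10.68, 10.95, 10.57 and 10.43 in L4, 10.21, 10.35, 10.47, 10.50 and 10.48 in lethargus, and 11.04, 10.96, 10.92, 11.06 and 11.10 in Adult. Lethargus was lowest and reached into the L4 range, and Adult overlapped L4 only through L4 replicate 3. Adult was 1.31-fold above L4 (limma adjusted p = 0.00400) and 1.53-fold above lethargus (limma adjusted p = 6.54e-05). Lethargus minus L4 was -0.22 (95% confidence interval -0.43 to -0.02) and did not pass (limma adjusted p = 0.159). The dimmer probe set of him-3 did pass in that comparison. It had 9.46, 9.91, 9.64, 9.41 and 9.45 in L4 and 9.18, 8.93, 8.78, 9.23 and 8.98 in lethargus, with no overlap, a fall of 0.55 on the log2 scale (limma adjusted p = 0.00318). The difference between the probe sets did not itself differ between lethargus and L4 by the exact test (0.33, two-sided exact permutation p = 0.0635, Benjamini-Hochberg p = 0.0952 over 9 such tests, chosen after the values were seen). The smallest p that 252 regroupings allow is 0.00794.

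htp-3, which recruits the other HORMA-domain proteins to the axis, was the noisiest member. Its values were 9.42, 10.00, 10.07, 9.51 and 9.34 in L4, 9.32, 9.73, 9.63, 9.88 and 9.96 in lethargus, and 10.45, 9.52, 10.57, 10.52 and 10.42 in Adult. Adult replicate 2 lay within the larval range, and the other 4 Adult arrays lay above all arrays of both other stages. Adult was 1.55-fold above L4 (limma adjusted p = 0.0238) and 1.51-fold above lethargus (limma adjusted p = 0.0340). Without Adult replicate 2 these log2 differences were 0.82 and 0.79 (0.63 and 0.59 with it), with limma adjusted p = 5.99e-04 and 9.21e-04, and leaving out the lowest Adult array could only enlarge the differences. With Adult replicate 2 kept, leaving out any 1 of the other Adult arrays ended both calls (adjusted p = 0.0551 to 0.0932). So did quantile normalization again (0.0709 and 0.0820) and cyclic loess (0.0633 and 0.128). Leaving out any 1 of L4 replicates 1, 4 and 5 ended the call against L4 (0.0591 to 0.0704), and leaving out any 1 of lethargus replicates 1, 2 and 3 ended that against lethargus (0.0574 to 0.0962). Lethargus and L4 differed by 0.03 in log2 (95% confidence interval -0.39 to 0.46), a value whose sign changed under 7 of 29 alternatives.

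**Figure D2:**
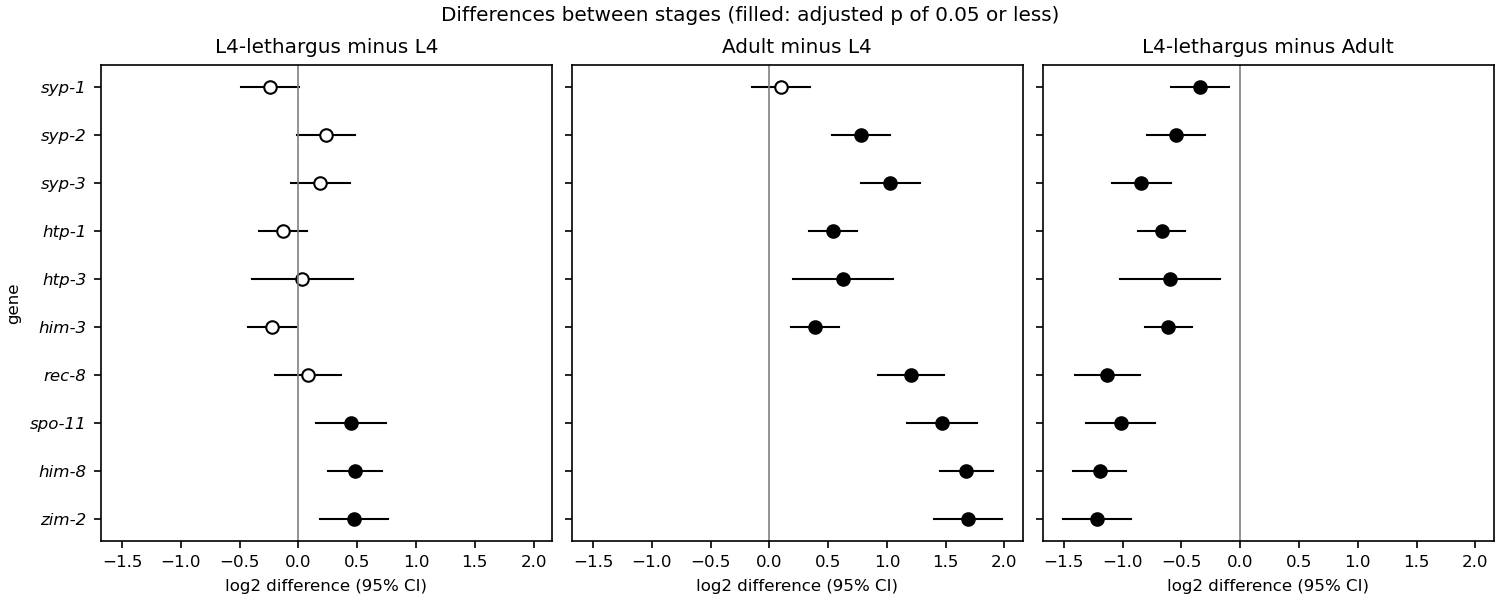
Log2 difference between stages for each gene with its 95% confidence interval from the fit on 15 arrays; filled circles have an adjusted p of 0.05 or less. Differences of spo-11, him-8 and zim-2 are above 0 against L4 in lethargus, and those of all 10 genes are below 0 against Adult.

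The stages were ordered L4, lethargus, Adult in 7 genes by mean level, and lethargus, L4, Adult in syp-1, htp-1 and him-3, whose lethargus and L4 levels did not differ by the test. For him-3 this holds for the brighter probe set, whereas the dimmer was called lower in lethargus than in L4, with no overlap. As a share of the way from L4 to Adult on the log2 scale, lethargus stood at 30.6% for spo-11, 29.7% for syp-2, 28.6% for him-8 and 28.1% for zim-2. It stood at 18.1% for syp-3, 6.43% for rec-8 and 5.38% for htp-3. Against the midpoint of L4 and Adult, lethargus was lower in 7 of 10 genes (23.6% of all genes were called lower) and higher in 0 by limma (18.8% of all genes), where 0 were above it at an unadjusted p under 0.05 either. The largest shortfall was that of rec-8, -0.53 in log2 (SE 0.11, limma adjusted p = 0.00251). syp-2, htp-3 and spo-11 did not pass (-0.16, -0.28 and -0.28). The count ranged from 0, after scaling to germline markers, to 9, with median-centring, and was 4 with cyclic loess and without lethargus replicate 1, lethargus replicate 5 or Adult replicate 4. By groups of arrays, the Adult arrays lay wholly above those of lethargus in 9 of 10 genes (26.5% of all genes, with 22.7% wholly below) and wholly above those of L4 in 7 (24.8%, with 24.3% wholly below). Lethargus and L4 overlapped in all 10 genes, him-3 by its brighter probe set (12.6% and 14.6% of all genes were wholly above or below).

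Of 50 other listed genes of meiotic prophase, 44 were measured by a probe set of their own. In Adult against L4, 42 rose (30.8% of all genes), 0 fell (28.7%) and 2 were not called, scc-2 and cra-1, with a median of 1.13 in log2. Among the 42 is cdk-2, whose mean lay below the background bound in every stage (4.02 in L4, 4.10 in lethargus and 4.34 in Adult), so that its level is not measured. The largest rises were those of lab-1 (1.96), a guard of sister cohesion, zim-1 (1.85) and xnd-1 (1.59), a chromatin factor that sets crossover positions. In lethargus against Adult, 0 rose (26.2% of all genes) and 42 fell (31.0%), and scc-2 and cdk-2 were not called, with a median of -0.95. The falls were led by zim-1 (-1.45), pch-2 (-1.37), which encodes a remodeller of HORMA proteins, and mre-11 (-1.28), which encodes a break-processing nuclease. Counts of 0 in those comparisons were also 0 under the scalings tried, with 1 exception. After scaling to germline markers 2 were lower in Adult against L4 (69.8% of all genes on that scale).

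In lethargus against L4, 4 of the 44 rose (16.0% of all genes) and 2 fell (15.6%), shares below those of all genes, with a median of 0.13. lab-1 rose 2.27-fold, from 9.08 ± 0.38 to 10.27 ± 0.16 (SD, n = 5 each, limma adjusted p = 1.06e-05). xnd-1 rose by 0.55 in log2 (limma adjusted p = 0.00921), zhp-2, which encodes a RING protein of crossover control, by 0.46 (0.0331), and its relative zhp-3 by 0.39 (0.0264). cra-1 fell by 0.41 (0.0211), and smc-3, a core cohesin subunit, fell by 0.36 (0.0323). The remaining central region genes syp-4, syp-5 and syp-6, named after their values were seen, differed from L4 by 0.10, 0.19 and -0.20 in lethargus, none of them called, and by 0.63, 1.14 and 0.79 in Adult, all called.

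**Figure D3:**
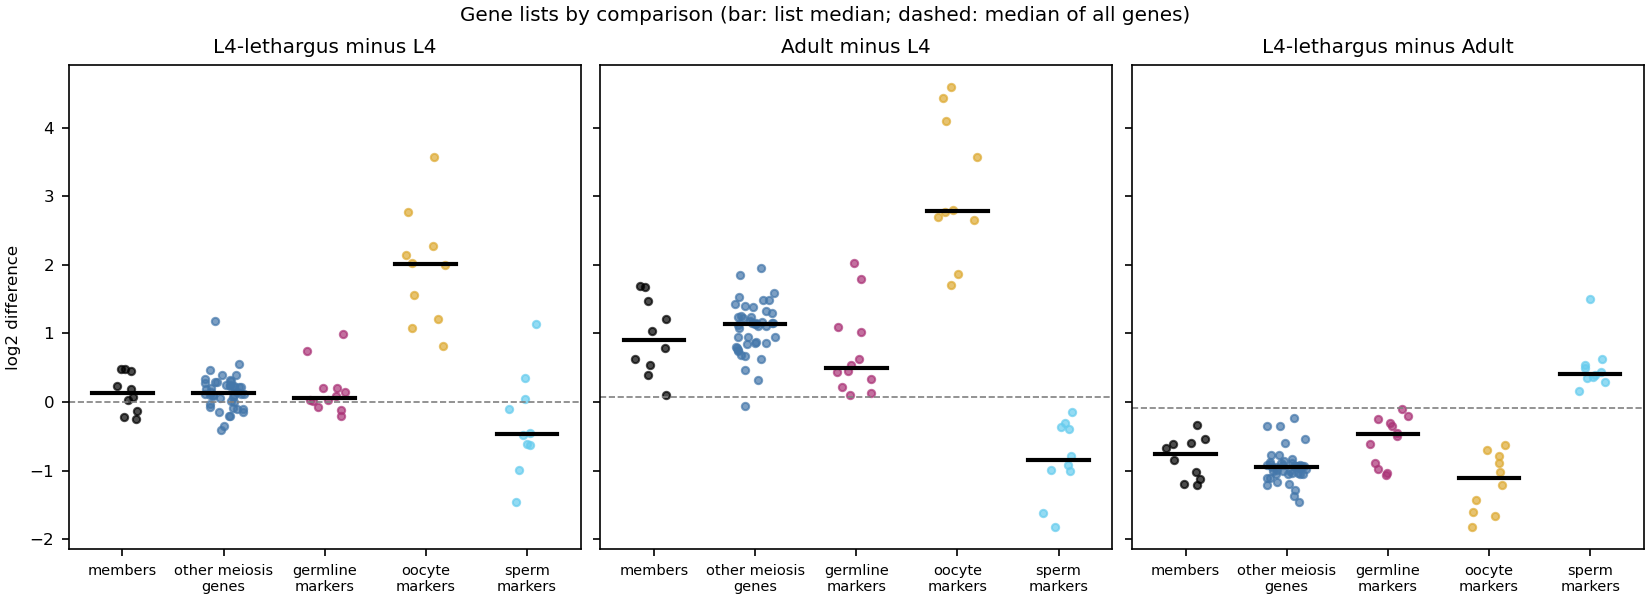
Log2 difference of each measured gene in the 10 members, 44 other meiosis genes, 12 germline markers, 10 oocyte markers and 10 sperm markers, for each comparison; a bar marks the list median and the dashed line the median of all genes. Oocyte markers have medians of 2.01, 2.79 and -1.12 and sperm markers of -0.47, -0.85 and 0.41, in the order of the panels, beside 0.13, 0.90 and -0.76 for the members.

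Markers of germ cells and of other cell types also differed between the stages, and several lists moved against the members. Over all genes the shares called were 30.8% higher and 28.7% lower in Adult against L4, and 16.0% and 15.6% in lethargus against L4. Of 12 germline markers, 8 rose in Adult against L4, 0 fell and 4 were not called, and in lethargus against L4, 2 rose (glp-1 and glh-2) and 0 fell. Their log2 summed level ranged over 14.1 to 14.5 in L4, 14.2 to 14.5 in lethargus and 14.6 to 14.9 in Adult. All 10 oocyte markers rose from L4 to lethargus and all 10 were higher still in Adult, with summed levels of 12.4 to 13.5, 14.33 to 14.83 and 15.6 to 15.7. Of 10 sperm markers, 7 fell in Adult against L4 (among them spe-38, below the background bound in every stage) and 0 rose, with summed levels of 13.0 to 13.5, 13.0 to 13.4 and 12.6 to 13.1. In lethargus against L4, 6 of these sperm markers fell and 1 rose. In the intestine list 4 of 4 genes, and in the gonadal sheath and spermatheca list 3 of 5 genes, were lower in Adult than in L4. Of 4 body wall muscle genes 2 were lower in Adult than in L4, and of 4 neuron genes 1 was higher and 2 were lower. In lethargus against L4, 1 muscle gene was lower and 0 neuron genes were called, and in lethargus against Adult 1 muscle gene was higher, and 2 neuron genes were higher and 1 was lower. No list had a defining marker at 0, since RMA values have no zero, and 1 sperm marker lay below the background bound in L4 and lethargus and 2 in Adult. The 3' minus 5' differences of control transcripts, a sign of RNA quality, had no single order. In log2, Adult had the lowest mean for catalase (2.67, against 3.22 in L4 and 3.05 in lethargus) and ubiquitin (4.28, against 4.63 and 4.38). It had the highest for GAPDH (0.29, against 0.12 and 0.06) and actin (0.12, against 0.05 and 0.04). The part of these in the members' differences was not tested. The scaling to germline markers that follows shifts all genes of an array alike, and does not test it either.

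Relative to the germline markers, some members were higher in Adult than in L4 and others lower. The mean log2 difference of the 12 markers was 0.73 in Adult minus L4, with a median of 0.50 and a range of 0.10 to 2.02, and in lethargus minus L4 the mean was 0.17 and the median 0.06. The scale thus depends on the markers and on the use of their mean, and a scale set by the median was not run. When each array was scaled to their mean, an alternative added after seeing the data, 4 of 10 members were still higher in Adult than in L4 (9.34% of all genes on this scale). These were zim-2 (0.96, SE 0.14, limma adjusted p = 8.62e-06), him-8 (0.94, 1.83e-05), spo-11 (0.74, 8.61e-04) and rec-8 (0.48, 0.0169). syp-1 and him-3 were then lower in Adult, by -0.63 and -0.34 (limma adjusted p = 0.00141 and 0.0158), where 69.8% of all genes were called lower. syp-2, syp-3, htp-1 and htp-3 did not pass, at 0.05, 0.30, -0.19 and -0.10. The same 4 genes were lower in lethargus than in Adult on this scale, by -0.66 for zim-2, -0.63 for him-8, -0.57 for rec-8 and -0.46 for spo-11, and no other member was called. Of all genes, 9.11% were called lower and 56.2% higher in that comparison. In lethargus against L4 none of the rises of spo-11, him-8 and zim-2 passed on this scale (0.28, 0.31 and 0.31, limma adjusted p = 0.399, 0.214 and 0.192), and him-3 was lower by -0.39 (0.0204).

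**Figure D4:**
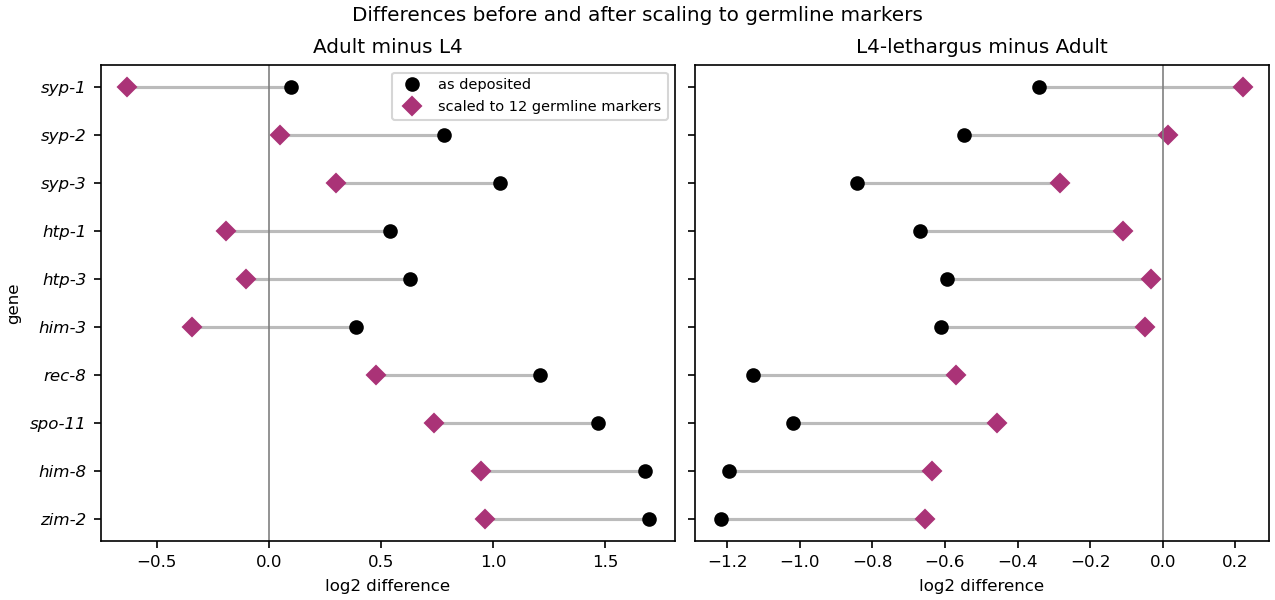
Log2 differences of the 10 genes as deposited (circles) and after each array was scaled to the mean of 12 germline markers (diamonds), for Adult minus L4 and lethargus minus Adult. After scaling rec-8, spo-11, him-8 and zim-2 stay at 0.48 to 0.96 in Adult minus L4, while syp-1 and him-3 lie at -0.63 and -0.34.

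Across the 15 arrays the members were positively correlated, and the arrays of all 3 stages enter these values. Pearson's r over the 45 pairs of genes had a median of 0.84 and ran from 0.35 (syp-1 with htp-3) to 0.99 (him-8 with zim-2). The 9 pairs with syp-1 had a median of 0.50, and the 36 others one of 0.91. With each stage's mean removed the median over all pairs was 0.63, with a range of 0.06 to 0.94. These values share arrays and are given as a description.

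Within a stage, some arrays were high or low for most members together. L4 replicate 3 was the highest L4 array in 10 of 10 genes, with a median deviation of 0.35 from the stage mean in log2, and lethargus replicate 1 was the lowest lethargus array in 9 of 10, with -0.27. L4 replicate 3 also had the highest summed oocyte marker level of its stage, 13.5 against 12.4 to 13.0, and the highest summed germline marker level. Its summed sperm marker level was the highest of its stage too, 13.5 against 13.0 to 13.3. Lethargus replicate 1 had the lowest oocyte marker level of its stage, 14.33 against 14.62 to 14.83, and the highest summed sperm marker level. Adult replicate 2 was the highest Adult array in 5 genes and the lowest in 4. It had the lowest summed germline and oocyte marker levels of its stage, 14.62 and 15.59, and the highest summed sperm marker level, 13.09.

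**Figure D5:**
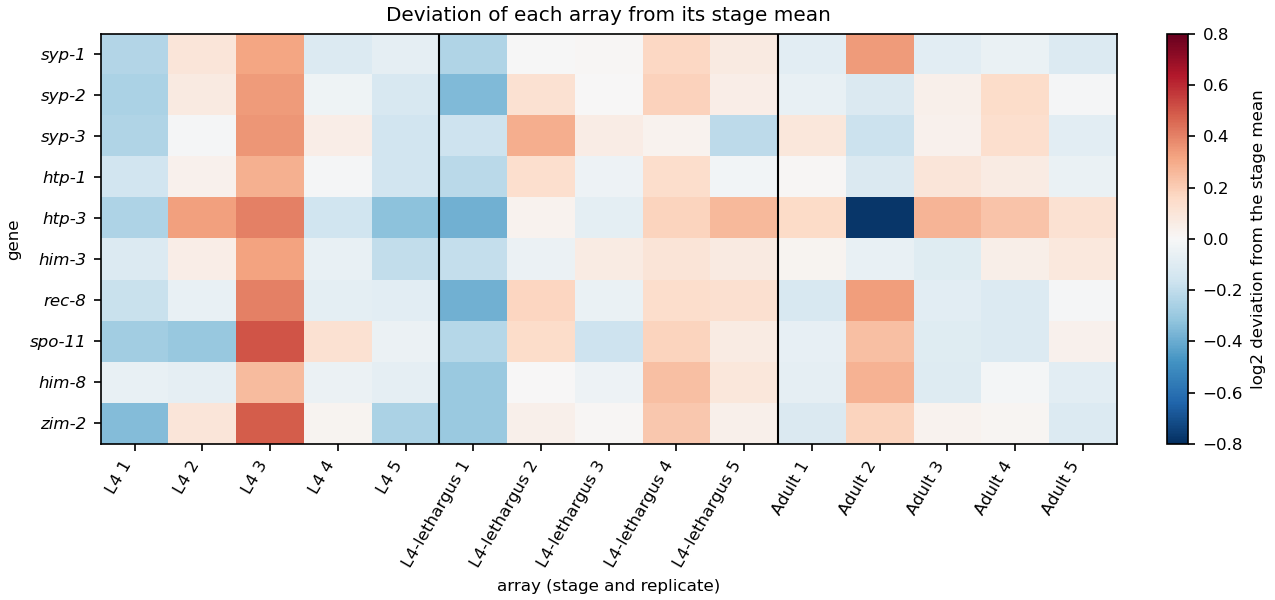
Deviation of each array from the mean of its stage, in log2, for the 10 genes (rows) and 15 arrays (columns). L4 replicate 3 is above its stage mean in all 10 genes, lethargus replicate 1 is below it in all 10, and Adult replicate 2 is high for syp-1, rec-8, spo-11, him-8 and zim-2 and low for htp-3.

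The genes whose values followed a member most closely were found by Pearson's r over the 15 arrays, 3 for each member. For him-8 they were skpt-1, bath-15 and rsa-1 (r of 0.995 to 0.996), and for zim-2 they were polh-1, C50C3.1 and Y110A2AR.1 (0.995 to 0.996). For spo-11 they were D2030.7, ify-1 and C28A5.1 (0.989 to 0.994), and for rec-8 Y48G10A.2, C48B4.11 and B0336.13 (0.991 to 0.993). The likest genes of syp-2 were EEED8.13, Y71F9AL.8 and cec-3 (0.980 to 0.984), and those of syp-3 were rnf-1, madf-6 and mop-25.3 (0.977 to 0.979). htp-1 was followed by fcd-2, T28A8.4 and skr-2 (0.971 to 0.980), htp-3 by attf-6, egrh-2 and par-2 (0.976 to 0.983) and him-3 by pro-1, hat-1 and picd-1 (0.949 to 0.964). For syp-1 the closest were enu-3.2, fbxa-93 and fbxa-207 (0.906 to 0.918), a looser likeness than for any other member. No 2 members shared any of these 30 genes. The genes were picked for their high r, with the differences between stages left in. The size of r and the lack of shared genes are therefore descriptions only.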

How the data were processed

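The deposited values are log2 expression values that the authors made with RMA, as the submitters' processing notes name it with no version. The scanner files and the authors' R/maanova results were not used here. The NuGEN Ovation V2 kit was used for amplification, per the labels' protocols. RMA makes arrays similar in distribution, so these values do not show a change in total RNA. The labels give RNA yields (mean ± SD) of 22.3 ± 7.0 ng in L4, 18.6 ± 3.5 ng in lethargus and 75.3 ± 10.3 ng in Adult. They give a minimum RNA integrity number of 5 for all 3 stages. Differences here are thus relative to the RNA on an array, and levels per animal were not measured. Of 22625 probe sets 77 were controls. Of 22548 tested, 20766 named 1 gene, 887 several and 895 none in the platform annotation, and 20701 were matched by gene id to RefSeq names (assembly WBcel235). A gene with several probe sets was read from that with the highest mean.

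All 15 arrays were fitted together with limma 3.58.1 in R 4.3.3 (lmFit, eBayes), with a mean per stage. Following the series design, each p was doubled, then adjusted by Benjamini-Hochberg over 22548 probe sets, and called at 0.05. The background bound of 5.56 is the 95th percentile over the 32 controls for transcripts of other organisms. The fit was tested on simulated data with noise drawn separately for each probe set and array. Deviations that the probe sets of an array share were thus not covered. Members, lists, tests and the rule for named genes were chosen with earlier results of these data known. The rule took all 10 members, at most 3 listed genes per direction and comparison, and the 3 genes most correlated with each member. Markers were listed by cell type: 12 for germline, 10 for oocytes, 10 for sperm, 5 for gonadal sheath and spermatheca, and 4 each for body wall muscle, intestine and neurons. Figures were drawn with matplotlib 3.10.9.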

Additional observations from a re-analysis of the deposited data

Results flagged for a closer look

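Of 33 groups of 5 arrays (11 probe sets in 3 stages), 6 held an array whose gap to the next array exceeded Dixon's critical value of 0.71 of the group's range. Chance gives about 1 in 20 for a single group, but the groups share arrays, so the count cannot be set against that rate. The 6 flags came from Adult replicate 2 and L4 replicate 3. Adult replicate 2 had 9.52 for htp-3 against 10.42 to 10.57 on the other Adult arrays, 10.90 for syp-1 against 10.45 to 10.50, 10.65 for rec-8 against 10.19 to 10.30, and 10.55 for him-8 against 10.17 to 10.26. L4 replicate 3 had 9.51 for rec-8 against 8.93 to 9.05, and 8.86 for him-8 against 8.53 to 8.55. The fold of him-8 and rec-8 between Adult and L4 was called with and without either array, with log2 differences of 1.61 without Adult replicate 2 and 1.74 without L4 replicate 3 for him-8, and of 1.12 and 1.31 for rec-8.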

How the results depend on the processing

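Under 29 alternatives (15 leave out 1 array each, and 2, the 3 arrays left out together and the germline scaling, were chosen after seeing the data) rec-8, spo-11, him-8 and zim-2 kept their direction and their call in Adult against L4 and in lethargus against Adult. No other member kept both calls under all of them. syp-2, syp-3, htp-1 and him-3 kept both under 28 of 29, the exception being the germline scaling. Leaving out 1 array at a time gave 8 to 9 members higher in Adult than L4, 8 to 10 lower in lethargus than Adult, 1 to 3 higher in lethargus than L4 and 4 to 7 below the midpoint. The count of members higher in lethargus than L4 was 1 with the 2 groups alone in the fit (15.7% of all genes). It was 5 without L4 replicate 3, lethargus replicate 1 and Adult replicate 2 together (20.7%) and 0 after scaling to germline markers (8.94%). The count lower was 1 with the mean of a gene's probe sets, with the probe set of the lowest mean and after scaling to germline markers. That scaling gave 4 members lower in lethargus than Adult, 4 higher and 2 lower in Adult than L4, and 0 below the midpoint, which was 4 with cyclic loess and 4 without the 3 arrays. For the 44 listed genes it gave 2 higher and 4 lower in lethargus than L4, 24 higher and 2 lower in Adult than L4, and 1 above and 10 below the midpoint. Without the 3 arrays 21 listed genes were higher (20.7% of all genes) and 1 lower (18.5%) in lethargus than L4, and 1 was above the midpoint (21.3%). L4 replicate 3 was picked as high for the members. Lethargus replicate 1 stood apart by correlation, and also lay below its stage mean in all 10 members. Leaving both out thus had to raise lethargus minus L4 in the members, and these gains are no evidence of a rise. The lower count was 1 with cyclic loess and 0 after scaling to the hybridisation controls. htp-3 in lethargus minus L4 was -0.0093 with median-centring, -0.14 after scaling to germline markers and -0.048 to 0.13 with 1 array left out. After that scaling rec-8 was -0.092 there, syp-1 and syp-2 were 0.22 and 0.014 in lethargus minus Adult, and syp-2 was 0.038 against the midpoint. In Adult minus L4, syp-1 was -0.022 after quantile normalization again, -0.0060 with cyclic loess and -0.63 after germline scaling, where htp-1, htp-3 and him-3 were -0.19, -0.10 and -0.34. syp-1 was called higher in Adult than L4 with median-centring (0.31) and scaling to the hybridisation controls (0.44), which put the median of all genes at 0.29 and 0.42 against 0.08, and calls among all genes at 68.6% and 75.5% higher against 51.8%. In lethargus against Adult they put those calls at 26.1% and 24.8% higher against 45.8%, and the all-gene median at -0.34 and -0.36. Against the midpoint they gave 25.9% and 31.3% higher against 44.3%. Germline scaling gave 34.5% higher in lethargus against L4 (50.6% as deposited), 86.0% in lethargus against Adult, 11.8% in Adult against L4 and 77.1% against the midpoint, with all-gene medians of -0.17, 0.48, -0.65 and 0.13. The labels do not say that same-numbered arrays share a batch (r of their deviations -0.24 to 0.13). With the replicate block the call of spo-11 in lethargus against L4 (0.45, adjusted p = 0.0664) and that of htp-3 in lethargus against Adult (-0.59, 0.0578) were lost. The cause of these changes was not tested.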
